A study of Homo sapiens with 8 samples.

Results

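The 8 genes described here are 7 translation elongation factor genes and TPT1, chosen by gene identifier: EEF1A1, EEF1A2, EEF1B2, EEF1D, EEF1G, EEF2, EIF5A and TPT1. All 8 were found among the 19580 transcripts of the table, 1 transcript per gene, and all 8 passed the filter of a mean of 1 RPKM, as did 11920 transcripts in all. RPKM is the number of ribosome footprint reads divided by the length of the transcript and scaled to the total of the library. The libraries came from HAP1 cells, a near-haploid human line that grows attached and derives from a chronic myeloid leukaemia line. The cells were wild type (WT) or carried a knockout of RNF14 (KO), an E3 ubiquitin ligase that acts at stalled ribosomes. The labels do not say whether the knockout is 1 clone. Cells of all 4 groups, the wild-type controls included, had received 5 uM 4-thiouridine (4SU), a uridine analogue, for 18 h and then UVA light at 6 kJ/m2, which together crosslink RNA to bound proteins. Lysis followed either at once (0 min) or after 30 min of recovery, with 2 biological replicates for each genotype and time and 8 libraries in all. No library came from untreated cells, so every comparison below is between treated cells.

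Elongation factors carry out the cycle by which a ribosome adds each amino acid. eEF1A, encoded by EEF1A1 or EEF1A2, brings aminoacyl-tRNA to the ribosome as a complex with GTP. The eEF1B complex, whose subunits come from EEF1B2, EEF1D and EEF1G, exchanges the GDP on used eEF1A for GTP. eEF2 moves the ribosome along the mRNA after each peptide bond, and eIF5A, which carries the modified residue hypusine, helps bond formation at slow sequences such as proline runs. TPT1 encodes the translationally controlled tumour protein, an abundant protein known to bind eEF1A and eEF1B. The mRNAs of many elongation factors and of TPT1 are known as 5′ TOP mRNAs: they begin with a C and a run of pyrimidines, through which mTOR signalling controls their translation.

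Start sites of 6 of the 8 genes were taken from a table of start sites (GRCh38.p14). Those of EEF1A2 and EEF1D were not, although both genes are annotated in that build. The first bases of the mRNA at a start site are shown because they divide the set. The search asked for a C at the start followed without a break by at least 4 more C or T, on the strand of the gene. Such a run stood at 1 or more start sites of 4 of the 6 genes, and at 4.07% of all 35116 start sites or in 5.14% of all genes in the table. The run is in capitals and the window is 20 bases.
EEF1A1, chr6:73521013-73521032, minus strand: CTTTTTCgcaacgggtttgc
EEF1B2, chr2:206159895-206159914, plus strand: CCTTTTTCCTCTCTTCagcg
EEF2, chr19:3985444-3985463, minus strand: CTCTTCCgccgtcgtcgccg
TPT1, chr13:45341164-45341183, minus strand: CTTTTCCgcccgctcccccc
EEF1G, chr11:62573872-62573891, minus strand: actttgcggcagcgccgaga
EEF1B2 had the longest run, of 16 bases, and the other 3 had runs of 7. EEF1B2 has 2 start sites in the table and only the one shown held the run. The single EEF1G start site begins with an a, and none of the 6 start sites of EIF5A held the run. A match describes these letters and is no measure of TOP control, and the footprint table does not say which start site the cells used. EEF1A2 lies at chr20:63488014-63499083 and EIF5A at chr17:7306999-7312463 in the same build.

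The 8 libraries held between 323946 and 1241975 reads on listed transcripts, a 3.83-fold range, and all 4 libraries at 30 min were shallower than all 4 at 0 min, so depth and recovery time cannot be told apart. RNA abundance was not analysed here, so the amount of an mRNA and its rate of translation cannot be told apart. Gene symbols could be given only to the 8 members: 0 rows of the available gene table carry an Ensembl identifier, so the footprints of RNF14 itself, markers of the cell line and lists of related factors were not analysed here. The p-values come from limma-trend on log2(RPKM + 1) over all 11920 tested transcripts, two-sided, adjusted by Benjamini-Hochberg, and a gene is said to rise, fall or change where the adjusted p was below 0.05. Each listed length includes untranslated regions, so a level per length is lower for a gene with a long untranslated region. Several of these genes, EEF1A1, EEF1B2 and TPT1 among them, have processed copies of near-identical sequence elsewhere in the genome. How reads that map to several places were treated is not given in the sources used here, so the levels of those genes are uncertain.

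The 8 genes spanned a wide range of footprint levels. Over the 8 libraries the mean level was 473 RPKM for EIF5A, 406 for EEF2, 231 for TPT1, 214 for EEF1A2, 123 for EEF1B2, 92.4 for EEF1D, 46.4 for EEF1G and 18.0 for EEF1A1. EIF5A ranked between 147th and 197th among all transcripts of a library by RPKM, and EEF1A1 between 3206th and 5930th. EEF1A1 thus stood lowest although eEF1A1 is the eEF1A form of most growing cells and among their most abundant proteins. Its listed transcript is the longest of the 8, at 4441 nt, and it had 26 to 154 reads in a library. The order of neighbours was not the same in every group. In WT at 0 min the libraries of EIF5A (401 and 489 RPKM) and EEF2 (414 and 332 RPKM) overlapped, and from there down TPT1, EEF1A2, EEF1B2, EEF1D, EEF1G and EEF1A1 were each separated from the next. In WT at 30 min TPT1 (196 and 240 RPKM) overlapped with EEF1A2 (221 and 233 RPKM), and EEF1B2 with EEF1D. In the KO, TPT1 stood above EEF1A2 at 0 min and below it at 30 min.

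**Figure D1:**
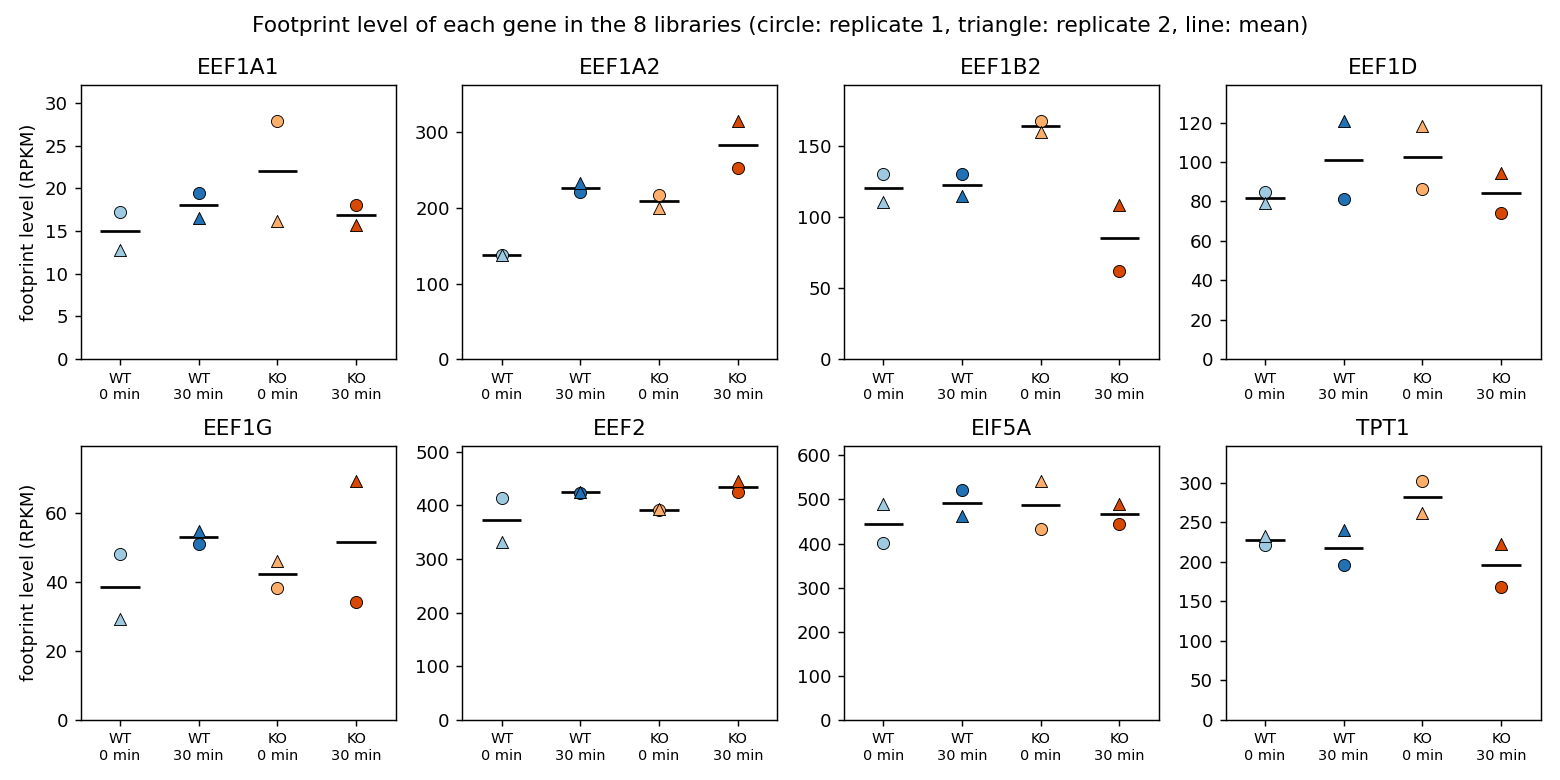
Footprint level in RPKM (vertical axis, from 0, scaled separately for each gene) of the 8 genes in WT and RNF14 KO cells at 0 and 30 min; points are libraries and the line is the mean of 2. EEF1A2 lies higher after recovery in both genotypes, and EEF1B2 has its highest mean, 164 RPKM, and its lowest, 85.3 RPKM, in the KO at 0 and 30 min.

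EEF1A2 (ENSG00000101210) encodes a second form of eEF1A, best known from muscle and neurons and from tumour cells. It was the 1 member of 8 that changed with recovery, and it rose. In WT it was at 138 and 138 RPKM at 0 min and at 221 and 233 RPKM at 30 min. In the KO it was at 217 and 201 RPKM at 0 min and at 252 and 316 RPKM at 30 min. The 30 min libraries, 4 in number, were each higher than every 0 min library, which also holds, in this direction, for 3.17% of the tested transcripts. Averaged over genotypes the log2 change was 0.57 (SE 0.12, limma adjusted p = 0.0185), where 7.79% of all tested transcripts were called, 2.45% of all tested as higher at 30 min, and the median change of all was -0.19. In WT alone it was 0.71 (SE 0.16, limma adjusted p = 0.0458), where 3.23% of tested transcripts were called, 1.79% as higher. In the KO alone it was 0.43 (SE 0.16), with an adjusted p of 0.195 by limma, and it was 0.27 without KO 30 min replicate 2 and 0.72 after quantile normalization. The difference between the recoveries was -0.28 (95% interval -0.79 to 0.24, limma adjusted p = 0.621). A rise in the KO was thus not called, and a difference in recovery between the genotypes was not shown.

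The EEF1A2 counts were 456 and 494 reads in WT at 0 and 30 min and 755 and 402 in the KO, summed over replicates. The ratio of read shares was 1.63 in WT (exact 95% interval 1.44 to 1.86) and 1.37 in the KO (1.21 to 1.55), and these intervals cover counting error only. The direction was the same in all 18 other settings, but the size moved. The log2 change averaged over genotypes ran from 0.37 with TPM to 0.75 with median centring. In WT it ran from 0.41 with TPM to 0.99 with median centring. The averaged call was kept in 12 of the 18, and the adjusted p was 0.113 without a trend in the prior and 0.0504 without WT 0 min replicate 2, 0.0587 and 0.0755 without WT 30 min replicate 1 or 2, and 0.0753 and 0.0969 without KO 0 min replicate 1 or 2 (limma). The call in WT was kept in 7 of 18, and was lost without any one of the 4 WT libraries (adjusted p from 0.11 to 0.2195) or of the KO libraries at 0 min (0.0980 and 0.101), with a replicate block (0.0644) and with TPM in place of RPKM (0.105), all by limma.

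EEF1A2 was also higher in KO than in WT libraries at both times without overlap, as were 21.5% of tested transcripts at 0 min and 20.2% at 30 min. At 0 min the log2 difference was 0.59 (SE 0.16, limma adjusted p = 0.185), and at 30 min it was 0.32 (SE 0.16, limma adjusted p = 0.526), so neither passed the threshold. The value at 30 min was 0.155 without KO 30 min replicate 2 and 0.48 without replicate 1. When the recovered reads were modelled as counts (limma voom), the difference at 0 min was 0.60 with an adjusted p of 0.0250, where voom called 6.97% of tested transcripts. The level in WT at 30 min, 227 ± 8.38 RPKM, was near that in the KO at 0 min, 209 ± 11.6 RPKM (SD, n = 2 each).

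EEF1A1 (ENSG00000156508), the other eEF1A gene, showed no such pattern. Its libraries read 17.2 and 12.7 RPKM in WT at 0 min, 19.4 and 16.6 in WT at 30 min, 27.9 and 16.2 in the KO at 0 min, and 18.1 and 15.7 in the KO at 30 min. All 4 groups overlapped with each other except that 1 KO library at 0 min stood above the rest. Its log2 change averaged over genotypes was -0.03 (95% interval -0.52 to 0.46, limma adjusted p = 0.952), an interval that holds changes of either sign, and the value was 0.14 with median centring. The protein products of EEF1A1 and EEF1A2 are close paralogs, but the share of footprint reads exchanged between their mRNAs in mapping was not tested.

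Of the eEF1B subunit genes, 0 passed the limma-trend test in any of the 6 contrasts. EEF1B2 (ENSG00000114942) encodes the subunit that catalyses nucleotide exchange. It was at 130 and 111 RPKM in WT at 0 min and at 130 and 115 RPKM at 30 min, so the WT groups overlapped. In the KO it was at 168 and 160 RPKM at 0 min and at 62.2 and 108 RPKM at 30 min, so both libraries at 30 min were below both at 0 min, as for 30.9% of tested transcripts. The log2 change in the KO was -0.99 (SE 0.25), with an unadjusted p of 0.00232 and an adjusted p of 0.0713 by limma, which missed the threshold. In WT it was 0.02 (SE 0.25, limma adjusted p = 0.970). The difference between the recoveries was -1.01 (95% interval -1.78 to -0.24, unadjusted p = 0.0152, limma adjusted p = 0.271), and it was -0.62 without KO 30 min replicate 1 and -1.41 without replicate 2.

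The low value of EEF1B2 in the KO at 30 min rested on 17 and 42 reads, against 176 and 105 reads at 0 min. The ratio of read shares was 0.542 (exact 95% interval 0.402 to 0.719, counting error only). The shallowest library of the series, KO 30 min replicate 1, was the lowest of all 8. Without it the log2 change was -0.59 (limma adjusted p = 0.198), and without KO 30 min replicate 2 it was -1.38 (limma adjusted p = 0.00977). With TPM the change was -1.11 and passed (limma adjusted p = 0.0304). At 0 min EEF1B2 was higher in the KO than in WT (0.44, limma adjusted p = 0.469), without overlap, as were 21.5% of tested transcripts. In all, 4 of 8 members were higher in the KO without overlap at 0 min, EEF1D and TPT1 among them. At 30 min EEF1B2 was lower in the KO (-0.57, limma adjusted p = 0.437), without overlap, as were 18.3% of tested transcripts. Neither EEF1B2 difference passed. The difference at 30 min was -0.17 without KO 30 min replicate 1 and -0.96 without replicate 2.

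EEF1D (ENSG00000104529) encodes a further exchange subunit, and EEF1G (ENSG00000254772) a subunit thought to hold the complex together. EEF1D was at 84.5 and 79.1 RPKM in WT at 0 min, 81.4 and 121 in WT at 30 min, 86.4 and 118 in the KO at 0 min, and 74.1 and 94.1 in the KO at 30 min. EEF1G was at 48.1 and 29.2 RPKM in WT at 0 min, 51.1 and 54.9 in WT at 30 min, 38.4 and 46.2 in the KO at 0 min, and 34.2 and 69.3 in the KO at 30 min. The recovery groups of EEF1D overlapped in both genotypes, while those of EEF1G overlapped in the KO only and in WT were higher at 30 min without overlap, as for 14.0% of tested transcripts. The EEF1G replicates of the KO at 30 min, on 16 and 46 reads, were the farthest apart. Averaged over genotypes the log2 change of EEF1D was 0.00 (95% interval -0.38 to 0.39) and that of EEF1G 0.35 (-0.18 to 0.87), with limma adjusted p of 0.995 and 0.411. The EEF1G value was 0.60 without KO 30 min replicate 1, 0.0958 without KO 30 min replicate 2, 0.52 without WT 0 min replicate 1 and 0.17 without WT 0 min replicate 2.

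Ratios within a library do not depend on how the library total is scaled, and 7 ratios between members were computed after the levels had been seen. EEF1B2 over EEF1G was 2.71 and 3.80 in WT at 0 min, 2.55 and 2.09 in WT at 30 min, 4.37 and 3.46 in the KO at 0 min, and 1.82 and 1.56 in the KO at 30 min. All 4 values at 30 min were below all 4 at 0 min, but by little and on few reads. The nearest values were 2.71 in WT at 0 min (98 EEF1B2 and 62 EEF1G reads) and 2.55 in WT at 30 min (79 and 53 reads). The value of 1.82 in the KO at 30 min rested on 17 and 16 reads. Counting error was not computed for these ratios. EEF1A2 over TPT1 was 0.623 and 0.593 in WT at 0 min, 1.13 and 0.969 in WT at 30 min, 0.719 and 0.764 in the KO at 0 min, and 1.499 and 1.42 in the KO at 30 min. Here all 4 values at 30 min were above all 4 at 0 min, and the order of the genes per length turned round in 3 of the 4 libraries at 30 min. The ratios of EEF1A2 to EEF1A1 and to EEF2 were likewise higher at 30 min within each genotype. For each of these 4 ratios exchanging the times within each genotype (exact two-sided permutation test) gave p = 0.0556, which is the lowest possible with 36 arrangements, and 0.0972 after Benjamini-Hochberg adjustment over the 7, so the test could not reach 0.05. EEF1B2 over EEF1D (exact permutation p = 0.167), EEF1D over EEF1G (p = 0.222) and EIF5A over EEF2 (p = 0.444) overlapped between times in at least 1 genotype. The ratios of EEF1A2 to TPT1, EEF1A1 and EEF2 share the member called above, so they are not independent of its rise. How often ratios between other transcripts are separated in this way was not computed.

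**Figure D2:**
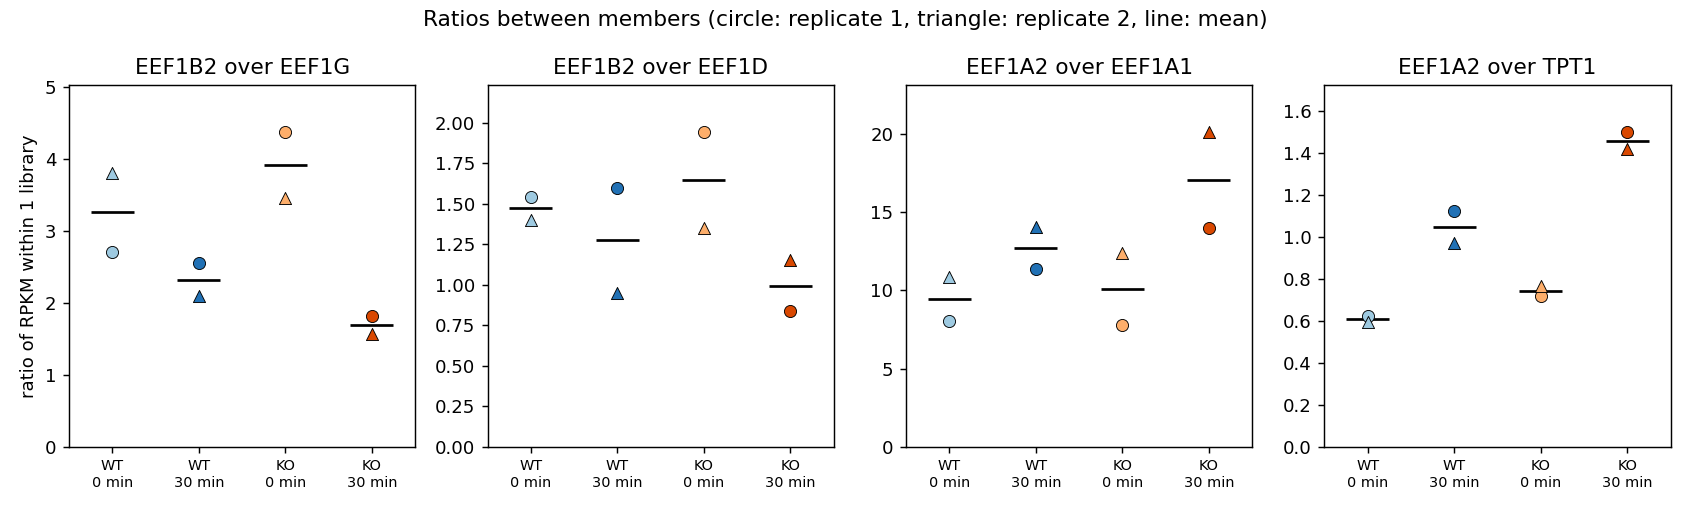
Ratio of RPKM between pairs of the genes within each library (vertical axis, from 0), by genotype and time; points are libraries and lines are means of 2. EEF1B2 over EEF1G is at most 2.55 at 30 min and at least 2.71 at 0 min, and EEF1A2 over TPT1 is at least 0.969 at 30 min and at most 0.764 at 0 min. The values 2.55 and 2.71 rest on 53 and 62 EEF1G reads.

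EEF2 (ENSG00000167658), the translocase, was among the steadiest members and the most read, with 434 to 1532 reads in a library. It was at 414 and 332 RPKM in WT at 0 min, 424 and 425 in WT at 30 min, 391 and 392 in the KO at 0 min, and 424 and 445 in the KO at 30 min. As for EEF1A2, every library at 30 min was above every library at 0 min, but by less, an order that 3.17% of tested transcripts shared; within the KO alone 18.6% were higher at 30 min without overlap. Over the 8 libraries the highest value was 1.34 times the lowest. The log2 change averaged over genotypes was 0.17 (95% interval -0.06 to 0.41, limma adjusted p = 0.350), which did not pass. It was -0.04 with TPM, so its sign depends on the scaling. The KO and WT differed by 0.08 at 0 min and 0.03 at 30 min on the log2 scale, with intervals of -0.25 to 0.41 and -0.30 to 0.36.

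EIF5A (ENSG00000132507), the hypusinated factor, was as steady. It was at 401 and 489 RPKM in WT at 0 min, 522 and 463 in WT at 30 min, 433 and 541 in the KO at 0 min, and 445 and 489 in the KO at 30 min, and all 4 groups overlapped. Its log2 change was 0.15 in WT (95% interval -0.22 to 0.52) and -0.05 in the KO (-0.42 to 0.32), with limma adjusted p of 0.649 and 0.901. The highest library was 1.35 times the lowest, next to EEF2 the smallest such spread of the 8.

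The fitted changes of TPT1 (ENSG00000133112) had the same signs in the KO as those of EEF1B2 and were smaller. It was at 222 and 233 RPKM in WT at 0 min and at 196 and 240 RPKM at 30 min. In the KO it was at 302 and 262 RPKM at 0 min and at 168 and 223 RPKM at 30 min. The WT groups overlapped, while both KO libraries at 30 min were below both at 0 min, as for 30.9% of tested transcripts. The log2 change in the KO was -0.54 (SE 0.19, unadjusted p = 0.0154, limma adjusted p = 0.165) and in WT -0.07 (SE 0.19, limma adjusted p = 0.875). The KO value was -0.34 without KO 30 min replicate 1, -0.74 without replicate 2 and -0.22 after quantile normalization. The difference between the recoveries was -0.47 (95% interval -1.05 to 0.11, limma adjusted p = 0.461). In the KO the ratio of read shares was 0.698 on 158 and 584 reads (exact 95% interval 0.582 to 0.834, counting error only). Across the 8 libraries the log2 levels of TPT1 and EEF1B2 had the highest Pearson correlation of any pair of members, r = 0.839. This is a description over libraries of unequal depth, and within a library both genes are scaled to the same total.

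**Figure D3:**
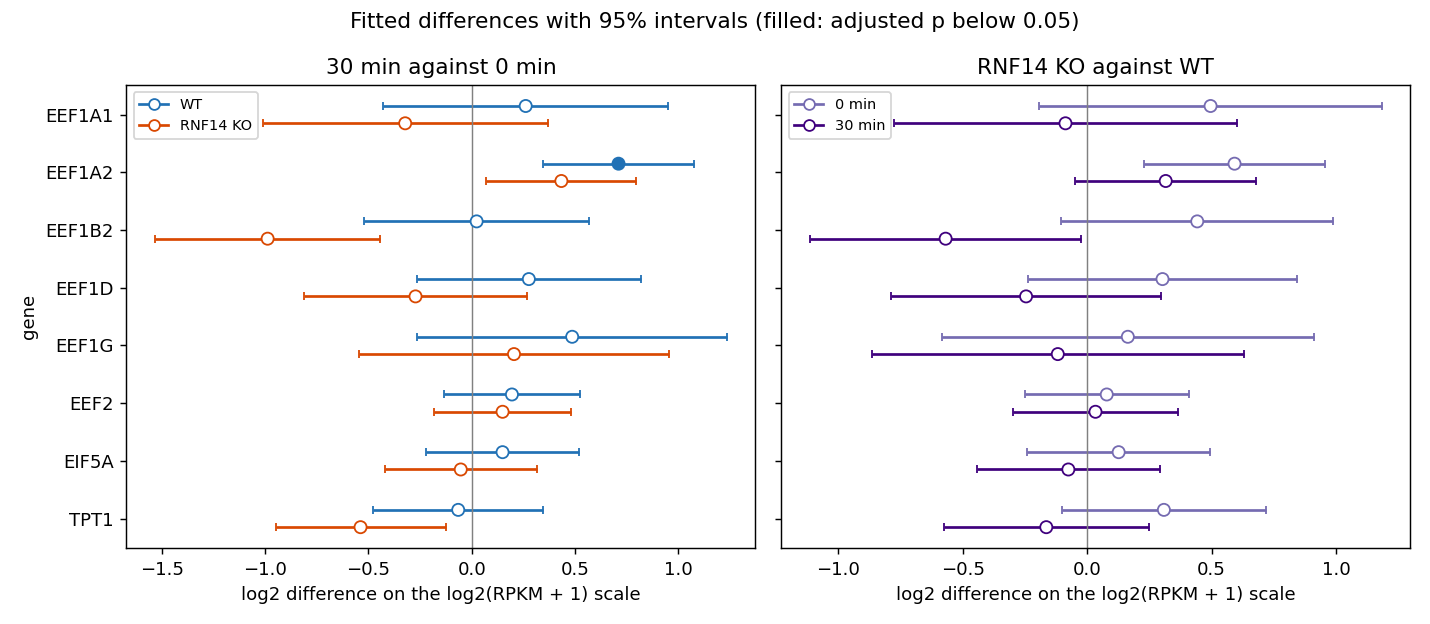
Fitted log2 differences on the log2(RPKM + 1) scale (horizontal axis) for each gene with 95% intervals from limma-trend, for 30 against 0 min in each genotype (left) and KO against WT at each time (right); filled points have an adjusted p below 0.05. The only filled point is EEF1A2 in WT recovery, at 0.71, and the point farthest from 0 is EEF1B2 in KO recovery, at -0.99.

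Beyond EEF1A2 with recovery, no member was called in the reported fit. In the KO recovery 0 of 8 were called by limma-trend, where 1.97% of tested transcripts were; 3 of 8 (EEF1A2, EEF1B2 and TPT1) had an unadjusted p below 0.05, as had 18.4% of all, and limma voom called 0, against 3.35% of all. Between genotypes 0 of 8 were called by limma-trend at either time, against 0.168% of tested transcripts at 0 min and 0.126% at 30 min. At each time 1 of 8 had an unadjusted p below 0.05, EEF1A2 at 0 min, where 13.6% of all had one, and EEF1B2 at 30 min, where 10.9% had. Limma voom called 1 at 0 min and 0 at 30 min, against 6.97% and 0.176% of all. These counts of 1 of 8 are near the share over all transcripts. The interaction of genotype and time called 0 of 8, against 0.00839% of tested transcripts, with 1 of 8 (EEF1B2) at an unadjusted p below 0.05, as for 13.3% of all, and 0 called by limma voom, which called 1.03% of all.

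The signs of the fitted differences depended on the scaling and on single libraries. At 0 min all 8 members had a higher fitted level in the KO than in WT, with a median log2 difference of 0.31, where 43.4% of all tested transcripts were higher and their median was -0.08. At 30 min 2 of 8 were higher in the KO, against 51.5% of all tested transcripts, with a median of -0.10 against 0.02 for all. Recovery in WT was positive for 7 of 8 (median 0.23), against 31% of all transcripts (median -0.26). In the KO it was positive for 3 of 8 (median -0.16), against 41.3% of all transcripts (median -0.12). The interaction was negative for all 8 (median -0.38), while 54.8% of all transcripts had a positive value (median 0.09). These comparisons share libraries and are not independent. Recovery in WT was positive for 2 of 8 with TPM (median -0.063, all transcripts -0.54), for 5 of 8 after quantile normalization and for 8 of 8 with median centring (median 0.51). After quantile normalization the median recovery in the KO turned to 0.0458. At 0 min 6 of 8 were higher in the KO with TPM and after quantile normalization, and the interaction was then positive for 1 and 3 of 8. Without KO 30 min replicate 1, 4 of 8 were higher in the KO at 30 min and the median turned to 0.0138, and the interaction was positive for 1 of 8 with a median of -0.20. Without KO 30 min replicate 2 these medians were -0.25 and -0.58. Without WT 0 min replicate 2 the interaction was positive for 2 of 8, 6 of 8 were higher in the KO at 0 min, and the median recovery in WT was 0.097. Without KO 0 min replicate 2 the median recovery in the KO turned to 0.0302.

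Together the 8 genes took 0.264% and 0.243% of reads in WT at 0 min, 0.296% and 0.298% in WT at 30 min, 0.290% and 0.296% in the KO at 0 min, and 0.279% and 0.318% in the KO at 30 min. WT at 0 min was lowest, and the KO groups overlapped. The share was higher by 0.0244 percentage points on average at 30 min than at 0 min within genotype, and the sign turned with TPM. An exact two-sided permutation test within genotype gave p = 0.167. The lowest p possible with 36 arrangements is 0.0556, so this test could not pass the threshold and decides nothing here. With 1 library left out the difference in share lay between 0.0146, without KO 30 min replicate 2, and 0.0342, without KO 30 min replicate 1. EEF2 alone accounted for 0.126% of all reads pooled over the libraries, and EIF5A for 0.0590%.

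Transcripts like the mean profile of the 5 members with a mean of 100 RPKM or more were sought among 903 others at that level. The measure was the Pearson correlation over the 8 libraries with the mean centred log2 level of these 5 members. The closest were ENSG00000137154.13, of 1355 nt (r = 0.930), and ENSG00000105193.9, of 643 nt (r = 0.928). The first had means of 361, 466, 486 and 367 RPKM in WT at 0 and 30 min and in the KO at 0 and 30 min. The second had means of 1391, 1749, 2082 and 1772 RPKM. In both, WT at 0 min was the lowest group and the KO at 0 min the highest. The 5 members did not share 1 course, as their pairwise r ran from -0.357 (EEF2 and TPT1) to 0.839 (EEF1B2 and TPT1). EEF1B2 and TPT1 were also highest in the KO at 0 min. EEF1A2 (284 RPKM) and EEF2 (434 RPKM) were highest in the KO at 30 min, and EIF5A (492 RPKM) in WT at 30 min. With 8 libraries and 903 candidates, high correlations are found in any case, and these values describe likeness only.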

How the data were processed

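Ribosome footprints were sequenced from 8 libraries of HAP1 cells. Per the labels' protocols, cycloheximide was in the lysis buffer, RNase I trimmed the mRNA, ribosomes were collected through a sucrose cushion, and fragments of a chosen size were made into libraries with a ligated linker. Tools named in the submitters' processing notes are cutadapt and STAR 2.7.10a, with the build hg38. The region that was counted is not stated there or in the labels. The authors deposited RPKM values and transcript lengths in 1 table. The name of the column used for KO 30 min replicate 1 has an added word that the labels leave unexplained, and its genotype, time and replicate decided the match.

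RPKM times length was a whole multiple of 1 step for 100% of values above 0 (tolerance 0.05), which gave the reads. The deposited RPKM were tested as log2(RPKM + 1) in 1 limma-trend fit of 4 group means (limma 3.58.1, R 4.3.3), for transcripts whose mean RPKM reached 1, with no block for replicate number. The code was tested on simulated counts. Alternatives were limma voom, no trend, a replicate block, quantile normalization, TPM, median centring, other filters (none, or a mean of 5) and pseudocounts (0.1 and 5), and leaving out each library. Ratios between members were added after the data were seen. Summed shares and ratios were tested by exact permutation (Python 3.11.15, scipy 1.17.1), and ratios of read shares carry exact 95% binomial intervals. All 8 members are named in the text. The members, lists and tests were chosen with earlier results of these data known. Lists of modifiers of elongation factors, initiation factors, ribosomal proteins, other TOP mRNAs and cell line markers were not run, for want of Ensembl identifiers to match them with.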

Additional observations from a re-analysis of the deposited data

How the results depend on the processing

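Over the 48 pairs of member and contrast, 18 alternatives gave 864 fitted values, of which 57 had another sign than the reported fit; 0 of these passed the threshold, and neither pair called in the reported fit changed sign. With TPM the log2 changes of EEF1D and EEF2 averaged over genotypes were -0.20 and -0.0352, those of EEF1B2 and EIF5A in WT -0.27 and -0.15, and EEF2 between genotypes at 0 min -0.0496. With median centring EEF1A1 averaged over genotypes was at 0.14, TPT1 in WT at 0.21, EIF5A in the KO at 0.0179 and EEF2 between genotypes at 30 min at -0.0396. After quantile normalization EEF1A1 averaged was at 0.16, EIF5A at -0.0809 in WT and 0.12 in the KO, EEF2 between genotypes at 0 min at -0.16 and the EEF1A2 interaction at 0.0008. The median of all transcripts averaged over genotypes was -0.19 as reported, -0.39 with TPM, -0.01 with median centring and -0.02 after quantile normalization. The cause of these differences was not tested.

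The members called for recovery averaged over genotypes were 3 with TPM (EEF1A2, EEF1B2 and TPT1), where 18.2% of all transcripts were called, and 0 without a trend (0.831% of all). For recovery in WT the count was 0 with a pseudocount of 0.1 (2.72% of all), with no filter (1.75%), with TPM (11.6%) and without a trend (0.0168%). For recovery in the KO it was 1 with TPM (EEF1B2, 4.79% of all) and 1 after quantile normalization (EEF1A2, 1.23% of all). For genotype at 0 min it was 1 with limma voom (EEF1A2; 6.97% of all). With 1 library left out, the log2 change averaged over genotypes ran from -0.22 to 0.16 for EEF1A1, from -0.14 to 0.14 for EEF1D and from 0.0958 to 0.60 for EEF1G. In WT it ran from -0.0914 to 0.14 for EEF1B2 and from -0.21 to 0.0798 for TPT1, and in the KO from -0.21 to 0.11 for EIF5A. EEF2 between genotypes ran from -0.0811 to 0.24 at 0 min and from -0.0007 to 0.0673 at 30 min. The log2 ratio of EIF5A over EEF2 ran from -0.28 to 0.0272. A group reduced to 1 library is assumed to vary like the others, and the reported fit uses 1 spread for all 4 groups. The groups did not vary alike. The reads of the 2 replicates differed most in WT at 0 min, with a chi-square per transcript of 4.25. It was 1.70 in WT at 30 min, 1.69 in the KO at 0 min and 1.79 in the KO at 30 min. The change of the summed share was -0.0245 percentage points as a share of TPM.

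With the replicate block, the members called for recovery in WT were 0, against 2.77% of all transcripts. EEF1A2 then had a limma adjusted p of 0.0644, and the other 5 counts did not move. Deviations of the replicates were little related between groups, with correlations from -0.0794 to 0.0669. These values do not show whether samples of the same replicate number were prepared together.

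Precision is limited by depth. EEF1B2, EEF1G and EEF1A1 had as few as 17, 16 and 26 reads in KO 30 min replicate 1, and there were 2 libraries per group.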
